A study of Neurospora crassa with 20 samples.

Results

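The H3K4me3 peaks of Δkmt1/Δdim-5 and of WT mycelia grown in the dark (DD) were compared by position. The members were chosen as all peaks of the 2 deposited DD H3K4me3 lists, 4815 in Δkmt1/Δdim-5 and 4449 in WT, which make 9264 of the 21628 peaks in the 8 lists of the series. Δkmt1/Δdim-5 is a Neurospora crassa strain in which the H3K9 methyltransferase gene dim-5 is deleted. It was backcrossed to the same WT strain that served for comparison. Both were grown as mycelia in liquid culture, kept for 24 h in light and then for 24 h in darkness before crosslinking. A light-pulsed set of the same strains (LP30) had a further 30 min of light. ChIP was performed with an H3K4me3 antibody on 2 biological replicates of each strain, 4 of the 20 samples of the series. The labels state single-end reads of 50 bp, and the lists give no read totals.

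Each list pools the 2 replicates, so there is no spread between replicates to set a difference against. No test was run, and the values below describe these pooled lists. The lists were called by macs2 against 1 shared control, the H3K4me3 ChIP of Δkmt2/Δset-1 in DD, a strain without the H3K4 methyltransferase. The fold enrichment of a peak is the ratio of ChIP to control at its summit, its most enriched base. It is scaled within a list, and a peak's rank among the folds of its own list, given as a percentile, is used here beside it.

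H3K4me3 is placed by KMT2/SET-1, the catalytic subunit of the COMPASS complex, and in fungi it sits mainly over the 5′ part of transcribed genes. H3K9me3 in Neurospora depends on KMT1/DIM-5 and marks A:T-rich DNA left by repeat-induced point mutation, at centromeres and in dispersed repeats. There it is bound by the heterochromatin protein HP1 (gene hpo), which brings the DNA methyltransferase DIM-2. A strain without dim-5 lacks H3K9me3 and DNA methylation. The comparison asks where the H3K4me3 peaks of such a strain lie relative to those of WT.

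The deleted gene was checked first. Over dim-5 (NCU04402, chromosome IV, 3480589 to 3482273 on the NC12 build) the Δkmt1/Δdim-5 list had no peak, whereas WT had a peak of 1012 bp with a fold enrichment of 1.61. Over set-1 (NCU01206), which is present in both strains and absent from the control, the peaks were alike, 5885 bp in Δkmt1/Δdim-5 and 5857 bp in WT, with folds of 5.18 and 5.24. The control pileup, the number of control fragments that macs2 set against that summit, was only 82.1 in the Δkmt1/Δdim-5 list and 76.9 in WT there, against list medians of 244 and 221.

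Most peaks were found in both strains. By an overlap of at least 1 bp, 4046 Δkmt1/Δdim-5 peaks were paired one to one with a WT peak. A further 68 Δkmt1/Δdim-5 peaks overlapped 2 or more WT peaks, and 65 WT peaks were overlapped by 2 or more Δkmt1/Δdim-5 peaks. In Δkmt1/Δdim-5, 571 of 4815 peaks (11.9%) had no WT peak and are called gained. In WT, 204 of 4449 peaks (4.59%) had no Δkmt1/Δdim-5 peak and are called lost. With only peaks of a fold of at least 1.5 in both lists, the order turned, with 101 gained and 633 lost. The median fold was 1.58 in the Δkmt1/Δdim-5 list and 1.73 in the WT list, so this limit falls at different ranks in them. With the same strain in the 2 growth conditions, WT LP30 against WT DD, 184 of 4544 peaks (4.05%) were gained and 136 of 4449 (3.06%) were lost. Δkmt1/Δdim-5 LP30 against Δkmt1/Δdim-5 DD had 283 gained (5.87%) and 219 lost (4.55%). The share of lost peaks between the strains was therefore close to that between light and dark within Δkmt1/Δdim-5, and, over all deposited peaks, the share of gained peaks was above both. These pairings share lists and the control ChIP.

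Gained and lost peaks were mainly narrow. The median width was 328 bp for gained peaks, against 1504 bp for the other Δkmt1/Δdim-5 peaks, and 322.5 bp for lost peaks, against 1458 bp for the other WT peaks. Among peaks under 500 bp, 422 of 656 in Δkmt1/Δdim-5 were gained (64.3%) and 150 of 414 in WT were lost (36.2%). From 500 to below 1000 bp the counts were 111 of 661 gained (16.8%) and 39 of 592 lost (6.59%). From 1000 to below 2000 bp, 35 of 2521 were gained (1.39%) and 13 of 2580 were lost (0.504%). At 2000 bp or more, 3 of 977 were gained and 2 of 863 were lost.

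They were also weakly enriched. The median fold was 1.208 in gained peaks and 1.198 in lost peaks, at the 10.2 and 5.72 percentiles of their own lists. Only 4 of the 571 gained peaks and 7 of the 204 lost peaks stood above the median fold of their list. With a q under 0.01 in the list that holds them, 267 gained and 95 lost peaks remained. Of the peaks with a q under 0.01, 6.15% were gained and 2.27% were lost. Of those with a q of 0.01 or more, 64.4% were gained and 40.4% were lost.

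**Figure D1:**
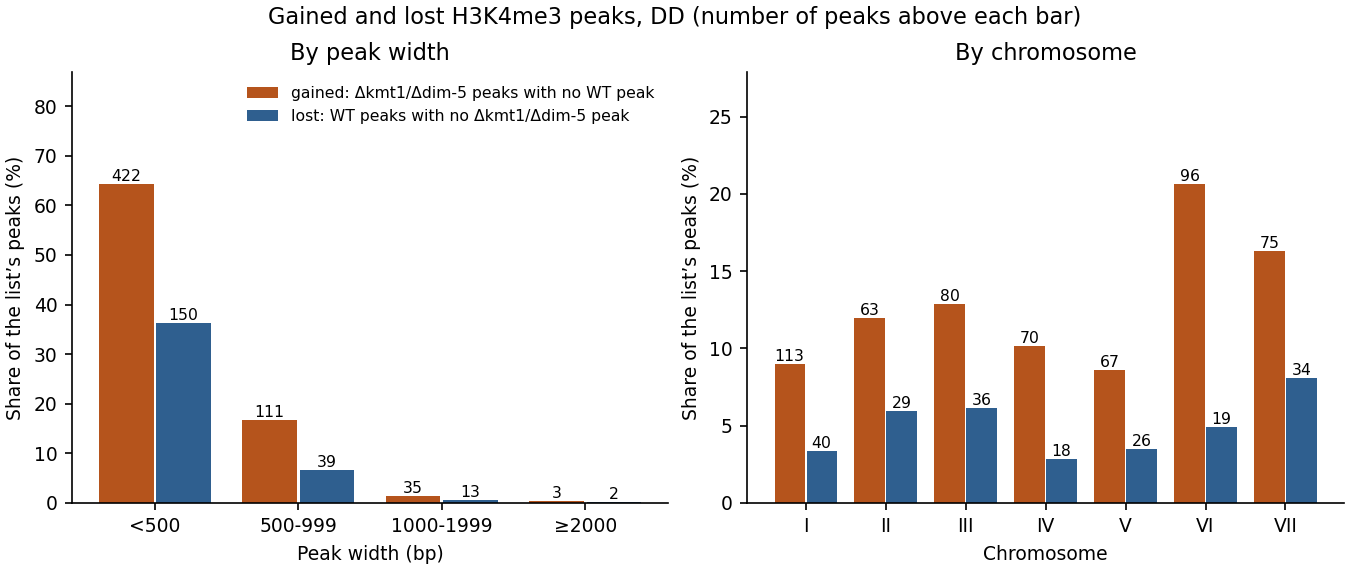
Share of Δkmt1/Δdim-5 DD peaks with no WT DD peak (gained, orange) and of WT DD peaks with no Δkmt1/Δdim-5 DD peak (lost, blue), by peak width (left) and by chromosome (right), with the number of peaks above each bar. The gained share is 64.3% and the lost share 36.2% under 500 bp, and both are under 2% from 1000 bp on. Among chromosomes, VI has the highest gained share (20.6%) and VII the highest lost share (8.06%).

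Among the chromosomes, which are the first 7 supercontigs of the build, VI had the highest share of gained peaks, 96 of 465 (20.6%). Chromosome VII followed with 75 of 461 (16.3%), and V had the lowest with 67 of 781 (8.58%). Lost peaks were most frequent on VII, 34 of 422 (8.06%), and least frequent on IV, 18 of 639 (2.82%). A large part of the gained peaks on VI lay inside H3K9me3 peaks of WT, 51 of 96, and likewise 31 of 75 on VII and 25 of 80 on III. Here and below, inside includes any overlap with an H3K9me3 peak. Outside H3K9me3 peaks the gained shares of the chromosomes were closer together, between 7.06% on V and 11.1% on VI. On the small unplaced contigs, 7 of 8 Δkmt1/Δdim-5 peaks were gained and 2 of 3 WT peaks were lost.

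The gained peaks of VI and VII stood close together. On chromosome VI between 3000001 and 3100000, all 30 Δkmt1/Δdim-5 peaks were gained, and on VII between 2200001 and 2300000 all 20 were. A window of the same 100 kb length on III, from 700001 to 800000, held 17 peaks, all gained. With a q under 0.01, 19 of these peaks remained on VI, 15 on VII and 6 on III. These 3 windows were under H3K9me3 in WT for 77.0, 100.0 and 99.1 of their 100 kb. Lost peaks were less clustered. The highest numbers in a window were 5 of 10 WT peaks on VII from 2100001 to 2200000, 5 of 20 on VII from 2500001 to 2600000, and 5 of 8 on III from 900001 to 1000000.

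H3K4me3 peaks that differed between the strains were more frequent in and near H3K9me3. Inside WT DD H3K9me3 peaks, 154 of 190 Δkmt1/Δdim-5 peaks were gained (81.1%) and 25 of 58 WT peaks were lost (43.1%). Peaks that only reach the edge of H3K9me3 count among these. The WT peak over NCU02434 on VII, for example, ended at 2494943, and the H3K9me3 peak began at 2494937. Up to 1 kb outside, 39 of 165 were gained (23.6%) and 21 of 144 lost (14.6%). Both shares were lower at each further distance, and beyond 20 kb they came to 218 of 2912 gained (7.49%) and 75 of 2780 lost (2.70%). Taken the other way, 33.8% of the gained peaks and 22.5% of the lost peaks lay within 1 kb of H3K9me3, against 3.67% of the WT peaks that were matched. The H3K9me3 peaks were called against the H3K9me3 ChIP of Δkmt1/Δdim-5, so they mark places where WT exceeded that strain.

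The gained peaks inside H3K9me3 differed in place from those elsewhere. Their summit lay in an annotated gene in 12 of 147 cases (8.16%) and a median of 33409 bp from the nearest gene end. Beyond 20 kb from H3K9me3, 190 of 218 gained summits (87.2%) lay in a gene, a median of 800 bp from a gene end. The median control pileup was 173 fragments for the gained peaks inside H3K9me3 and 243 for those beyond 20 kb. Of the 154 inside, 70 overlapped a peak of the Δkmt1/Δdim-5 LP30 list (45.5%) and 4 a peak of WT LP30. Of the 218 beyond 20 kb, 168 overlapped a Δkmt1/Δdim-5 LP30 peak (77.1%) and 39 a WT LP30 peak.

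In the longest H3K9me3 domain of each chromosome, between 214 kb long on IV and 348 kb on VII, the Δkmt1/Δdim-5 list had 30 peaks on VI, 30 on VII, 14 on III, 11 on V, 3 on II, 1 on IV and none on I. All 89 were gained. Per 100 kb of domain these are 12.2 peaks on VI, 8.61 on VII, 5.78 on III and 3.36 on V. Their enrichment was low, with a highest fold of 1.47, on VII. A q under 0.01 was reached by 17 on VI, 20 on VII, 6 on III, 6 on V and 2 on II, and not by the 1 on IV. The domains of VI and VII held 20 and 21 peaks in Δkmt1/Δdim-5 LP30 and 1 peak each in WT LP30, whereas that of III held 3 in Δkmt1/Δdim-5 LP30 and none in WT LP30.

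**Figure D2:**
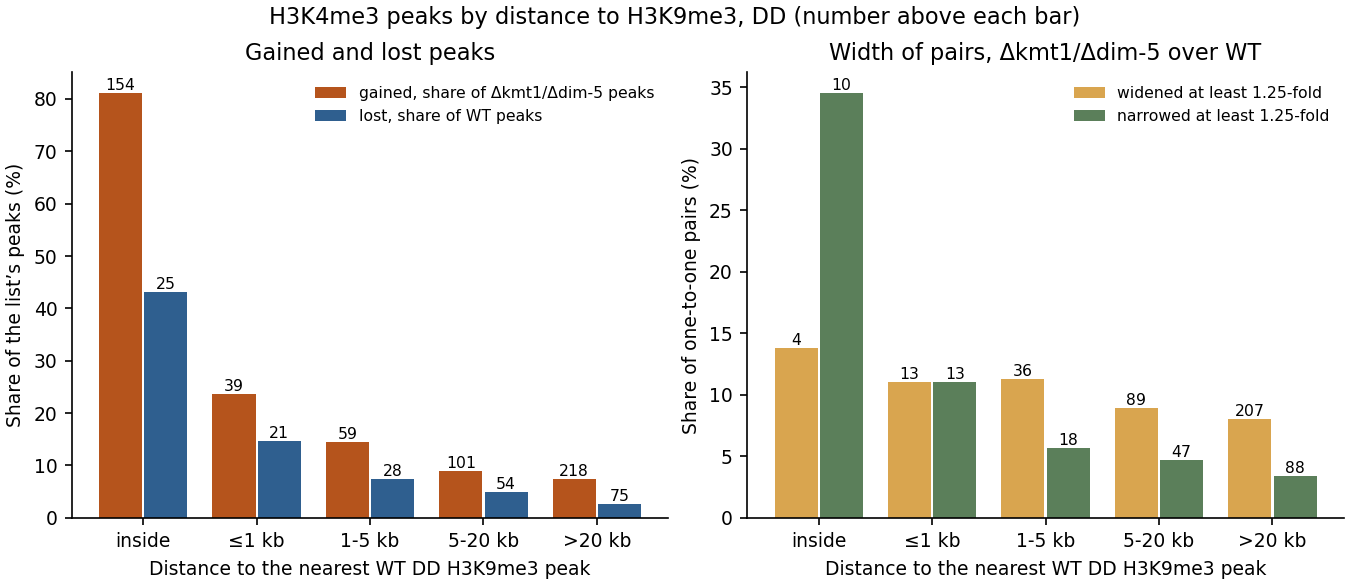
H3K4me3 peaks by distance to the nearest WT DD H3K9me3 peak, with the number of peaks or pairs above each bar. Peaks that overlap an H3K9me3 peak by any length count as inside. On the left, gained peaks as a share of Δkmt1/Δdim-5 DD peaks (orange) and lost peaks as a share of WT DD peaks (blue) come to 81.1% and 43.1% inside H3K9me3 and to 7.49% and 2.70% beyond 20 kb. On the right, pairs at least 1.25-fold wider (yellow) or narrower (green) in Δkmt1/Δdim-5 show 34.5% narrowed inside H3K9me3 and 3.41% beyond 20 kb.

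Beside the same domains, WT peaks were lost or narrowed, and peaks were also gained, many of the gained ones inside further H3K9me3 domains. Within 50 kb of either edge, a distance chosen after the values were seen, the 7 longest domains had 82 WT peaks, of which 25 were lost (30.5%, against 4.59% of all WT peaks). Of the 53 pairs there, 16 were at least 1.25-fold narrower in Δkmt1/Δdim-5 (30.2%, against 4.35% of all pairs) and 2 were that much wider. Of the 89 Δkmt1/Δdim-5 peaks there, 31 were gained (34.8%, against 11.9% of all Δkmt1/Δdim-5 peaks). These lay on VI (17, of which 16 right of the domain), III (11, of which 10 left of it) and IV (3). Right of VI, where WT had no peak, H3K9me3 domains from 3035268 to 3059794 and from 3060761 to 3080305 held 8 and 5 gained peaks. Left of III, an H3K9me3 domain from 683252 to 722342 held 9. On VI the peaks covered 18207 bp in Δkmt1/Δdim-5 and 11964 bp in WT, and left of the domain of III they covered 3973 bp in Δkmt1/Δdim-5 and 2457 bp in WT. Chromosome VII contributed 8 of the 25 lost peaks and 6 of the 16 narrowed pairs. Without it, 17 of 62 WT peaks were lost (27.4%) and 10 of 42 pairs were narrowed (23.8%). Chromosome II had 4 lost peaks of 14 and no narrowed pair, and VI had no lost peak of 5 and 1 narrowed pair.

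At the domain of chromosome VII, from 2134736 to 2483087, all 11 pairs within 50 kb were narrower in Δkmt1/Δdim-5, with a median width ratio of 0.662. The 20 WT peaks covered 24187 bp, and the 13 Δkmt1/Δdim-5 peaks covered 11129 bp. In LP30 the same stretches held 14 Δkmt1/Δdim-5 peaks over 11865 bp, against 20 WT peaks over 24552 bp. In fold, 10 of the 11 pairs ranked lower in Δkmt1/Δdim-5, with a median percentile of 30.0 against 75.3 in WT. The lost WT peaks nearest to the left edge lay over NCU02450 (1660 bp, fold 1.83), over NCU02451 and NCU02452 (942 bp, fold 1.53) and over NCU02452 (738 bp, fold 1.32). Over NCU02453 the peak was 346 bp in Δkmt1/Δdim-5 and 1277 bp in WT. Right of the domain, over NCU02434, it was 333 bp in Δkmt1/Δdim-5 and 1906 bp in WT, and what remained lay next to a further H3K9me3 peak. Over NCU02433 and NCU02432, at the other end of that H3K9me3 peak, it was 486 bp in Δkmt1/Δdim-5 and 2200 bp in WT, and there too the remaining part was the one next to H3K9me3. The widths in LP30 were 373 and 233 bp in Δkmt1/Δdim-5, against 2157 and 2167 bp in WT. Of 13 narrowed pairs that lay 1 bp to 1 kb from H3K9me3 anywhere in the genome, 8 gave up more on the far side and 5 more on the side facing it, with medians of 266 and 81 bp.

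Among all one-to-one pairs, the width differed little. The median ratio of Δkmt1/Δdim-5 to WT width was 1.01, a log2 ratio of 0.02, and 87.0% of the pairs were within 1.25-fold. By any amount, 2404 pairs were wider in Δkmt1/Δdim-5 (59.4%), 1628 were narrower (40.2%) and 14 were equal (0.346%). At least 1.25-fold wider in Δkmt1/Δdim-5 were 349 pairs (8.63%), and at least 1.25-fold narrower were 176 (4.35%). At least 2-fold wider were 53 pairs (1.31%), and at least 2-fold narrower were 30 (0.741%). The 2 growth conditions within a strain gave smaller spreads. There 94.9% of the pairs were within 1.25-fold for WT LP30 over WT DD and 91.6% for Δkmt1/Δdim-5 LP30 over Δkmt1/Δdim-5 DD. In LP30 the 2 strains had 552 pairs at least 1.25-fold wider in Δkmt1/Δdim-5 and 131 narrower, with a median ratio of 1.05.

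The share of wider pairs was highest among narrow WT peaks. By WT width, the 349 wider pairs were 96 under 500 bp, 114 from 500 to below 1000 bp, 127 from 1000 to below 2000 bp and 12 of 2000 bp or more. Of the 197 pairs whose WT peak was under 500 bp, 48.7% were at least 1.25-fold wider in Δkmt1/Δdim-5, against 1.49% of the 808 pairs whose WT peak was 2000 bp or more. Sorted by the Δkmt1/Δdim-5 width instead, the pairs under 500 bp had a median log2 ratio of −0.19, against 0.31 when sorted by WT width, so the direction depended on the list by which the pairs were sorted. In 227 of the 349 wider pairs (65.0%) the gain was on 1 edge, the other edge reaching no more than 50 bp further out. The narrower pairs gave up 1 edge in 109 of 176 (61.9%). The wider pairs had a median width of 1304 bp in Δkmt1/Δdim-5 and 816 bp in WT, and in 301 of them the fold ranked higher in Δkmt1/Δdim-5 (86.2%, against 66.6% of all pairs). The narrower pairs had medians of 581 and 935.5 bp, and in 68 of 176 (38.6%) the fold ranked higher in Δkmt1/Δdim-5.

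The narrowed share was higher near H3K9me3, and the widened share varied less with distance. Of the 29 pairs whose WT peak overlapped H3K9me3, 10 were at least 1.25-fold narrower in Δkmt1/Δdim-5 (34.5%) and 4 wider, with a median log2 ratio of −0.13. The narrowed share was 11.02% at 1 bp to 1 kb, 5.64% at 1 to 5 kb and 3.41% beyond 20 kb. The widened share ranged between 8.02% and 13.8% over the same distances.

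The 5 pairs with the largest gain in width, among those with a q under 0.01 in both lists, were all at least 800 bp from H3K9me3. Over sod-1 (NCU02133), which encodes the copper-zinc superoxide dismutase, the peak was 1490 bp in Δkmt1/Δdim-5 and 328 bp in WT, a ratio of 4.54. Its fold ranked at the 99.4 percentile in Δkmt1/Δdim-5 and at the 10.5 percentile in WT. In LP30 it was 1573 bp in Δkmt1/Δdim-5 and 527 bp in WT. NCU06414 followed with 1104 bp in Δkmt1/Δdim-5 and 249 bp in WT, and NCU17019 with 928 bp in Δkmt1/Δdim-5 and 219 bp in WT. The peak over the histone deacetylase gene hda-4 (NCU07018) was 942 bp in Δkmt1/Δdim-5 and 228 bp in WT, and that over NCU03601 was 1178 bp in Δkmt1/Δdim-5 and 301 bp in WT. All 5 were also wider in Δkmt1/Δdim-5 in LP30.

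The 5 most narrowed pairs were all in or within 2 kb of H3K9me3. Besides the 3 of chromosome VII above, they were 2 peaks on chromosome I. Over NCU09362 the peak was 285 bp in Δkmt1/Δdim-5 and 1874 bp in WT, a ratio of 0.152, with the fold at the 18.2 percentile in Δkmt1/Δdim-5 and the 69.4 percentile in WT. Over NCU09892, at the right edge of the longest domain of that chromosome, it was 541 bp in Δkmt1/Δdim-5 and 1672 bp in WT.

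**Figure D3:**
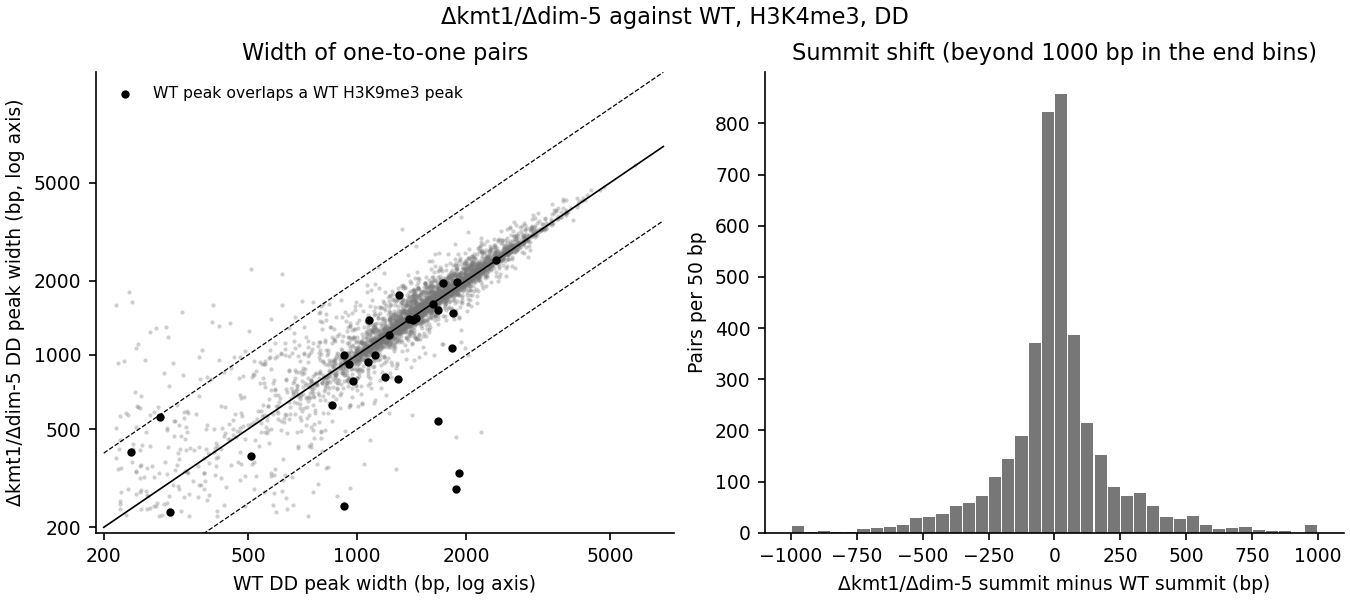
Left, width of the 4046 one-to-one pairs, Δkmt1/Δdim-5 DD against WT DD, on log axes, with equality (solid line), 2-fold limits (dashed lines) and the 29 pairs whose WT peak overlaps a WT H3K9me3 peak in black. Most pairs lie close to the solid line, and 53 lie on or above the upper and 30 on or below the lower dashed line. Right, number of pairs by summit shift in bins of 50 bp, centred on 0, with a median distance of 69 bp.

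Summit positions differed little and in no common direction. The median distance between the 2 summits of a pair was 69 bp, with 25% of the pairs under 25 bp and 25% over 181 bp. The summit lay at a higher coordinate in Δkmt1/Δdim-5 in 2041 pairs, at a lower one in 1980 and at the same base in 25. The summits were no more than 150 bp apart, about the DNA of 1 nucleosome, in 70.3% of the pairs and further apart in 29.7%. The median distance was 63 bp for WT LP30 over WT DD and 89 bp for Δkmt1/Δdim-5 LP30 over Δkmt1/Δdim-5 DD, so that of the 2 strains in DD lies between those of the light pulse. It was 103 bp between the 2 strains in LP30. By chromosome it ranged between 57 bp on III and 77 bp on I.

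Summits were more than 500 bp apart in 198 pairs (4.89%). Of these, 100 had a WT peak of 2000 bp or more, 87 one from 1000 to below 2000 bp, 9 one from 500 to below 1000 bp and 2 one under 500 bp. The width of overlapping peaks bounds how far apart their summits can lie, so the shares, 12.4% of the 808 pairs of 2000 bp or more and 1.02% of those under 500 bp, are in part set by width. In 36.4% of the 198 pairs both edges were within 50 bp of each other in the 2 strains, close to the 38.02% of the other pairs. Of the 100 long shifts in peaks of 2000 bp or more, 23% lay over 2 or more genes, against 14.1% of the 708 other pairs of that width.

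The 5 longest shifts showed this. Over his-6 (NCU07156), a gene of histidine biosynthesis, and its neighbour NCU07155, the peak was 3607 bp in Δkmt1/Δdim-5 and 3590 bp in WT, but the summits were 2543 bp apart. Over NCU09866 the widths were 4649 bp in Δkmt1/Δdim-5 and 4670 bp in WT, with summits 2474 bp apart, within a single gene. The other pairs lay over NCU06266 and NCU06267 (2404 bp), NCU04442 and NCU04443 (1905 bp), and NCU10028 and NCU10029 (1819 bp), each with a width ratio between 0.99 and 1.01.

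The height of the ChIP signal at the summits was bounded. The number of ChIP fragments over a summit, the ChIP pileup, was recovered from fold and p. Its highest value was 441 in Δkmt1/Δdim-5 and 432 in WT, and 2 times the width of the narrowest peak is 444 and 432. By default macs2 keeps 1 read per position and strand, and reports no peak narrower than its fragment length. Of the Δkmt1/Δdim-5 peaks 58.7%, and of the WT peaks 63.2%, had a pileup of at least 90% of the highest. The part of this bound in the folds and in the summit positions was not tested. Among pairs with a WT width from 1000 to below 2000 bp, the median summit distance was 60 bp where both pileups were that high and 76 bp where they were not.

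The most enriched lost peaks were in or near H3K9me3. The WT peak over NCU16528, 3134 bp on chromosome II from 1151971 to 1155104, lay inside a 272 kb H3K9me3 domain, with a ChIP pileup of 355 fragments and a control pileup of 83.2. WT LP30 had a peak of 3152 bp there, and neither Δkmt1/Δdim-5 list had one. Under the 3 gained Δkmt1/Δdim-5 DD peaks of that domain the control pileup was higher, between 146 and 187. Whether Δkmt1/Δdim-5 and the control strain have fewer copies of the DNA at NCU16528 was not tested. The next most enriched lost peaks were 2 over sly-1 (NCU09969) on chromosome VI, described below. They were followed by a peak 18 bp from trx (NCU05731) on III (689 bp, fold 1.84), 648 bp from H3K9me3, by the peak over NCU02450, and by peaks over NCU09294 on VII (1228 bp, fold 1.79), NCU08594 on I (1823 bp, fold 1.76) and NCU02428 on VII (377 bp, fold 1.73). All 8 were within 1 kb of H3K9me3, as were 4.54% of all WT peaks, and all 8 had a WT LP30 peak. Only the one over NCU02450 had a Δkmt1/Δdim-5 LP30 peak, of 294 bp against 1506 bp in WT LP30. Of the 15 lost peaks of 1000 bp or more, 9 were within 5 kb of H3K9me3, against 36.3% of all lost peaks. Of all 4449 WT peaks, 58 were inside H3K9me3, 144 up to 1 kb and 373 at 1 to 5 kb from it.

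The most enriched gained peaks lay mostly outside it, as did gained peaks in general. The highest fold was 1.65, in a peak of 620 bp on chromosome II from 2224019 to 2224638, 5216 bp from the nearest annotated gene, NCU01835. Its ChIP pileup was 158 over a control pileup of 95.6, where the list median of the control was 244. This peak was followed by peaks over NCU04518 on IV (823 bp, fold 1.60), NCU07074 on VI (908 bp, fold 1.59), NCU07541 on III (1277 bp, fold 1.58), acw-12 (NCU08171) on VII (1242 bp, fold 1.57) and NCU08570 on III (2058 bp, fold 1.53). A peak of 236 bp stood 236 bp from sly-1 (fold 1.51) and one of 1524 bp stood 303 bp from NCU16459 on I (fold 1.502). Their control pileups, 99.1 and 132, were also below the list median. Of these 8, only the one beside sly-1 was inside H3K9me3. All 8 had a peak in Δkmt1/Δdim-5 LP30, and 1, that near NCU01835, also had one in WT LP30, with a fold of 1.17 against 1.67 in Δkmt1/Δdim-5 LP30. Of the 38 gained peaks of 1000 bp or more, 5 were inside H3K9me3 and 20 were more than 5 kb from it. Among all gained peaks, 44.1% were within 5 kb. The widest, 2463 bp on chromosome VI from 1954482 to 1956944, was inside H3K9me3 and 3708 bp from a gene.

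The locus of NCU09968 and sly-1 (NCU09969) on chromosome VI, which overlap in the annotation, had the largest difference of form. WT had 1 peak of 8473 bp there, from 309422 to 317894, and 2 lost peaks of 1044 and 501 bp right of it. Δkmt1/Δdim-5 had 5 peaks of 395 to 1132 bp under the WT peak, 3047 bp together, and the gained peak beside sly-1. The ChIP pileup of the long WT peak was 421 fragments, and the 5 Δkmt1/Δdim-5 peaks had pileups of 82, 22, 39, 86 and 94. The control was nearly empty at the summit of the WT peak, with a pileup of 3.36 against the list median of 221, so the fold of 96.9 rests on that. Under the 5 Δkmt1/Δdim-5 peaks it was between 3.78 and 39.7, and the folds were between 2.04 and 8.38, the highest of that list. An H3K9me3 peak of 12218 bp, called against Δkmt1/Δdim-5 ChIP, covered the locus. In LP30 WT again had 1 peak of 8457 bp with a pileup of 427, and Δkmt1/Δdim-5 had only short peaks. The median of 221 itself comes from a control strain without the H3K4 methyltransferase. Under gained peaks inside H3K9me3 the median control pileup was 173, against Δkmt1/Δdim-5 ChIP pileups of 22 to 94 here. Fewer copies of this DNA in Δkmt1/Δdim-5 and in Δkmt2/Δset-1 were not tested, nor was less H3K4me3 on it in Δkmt1/Δdim-5.

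**Figure D4:**
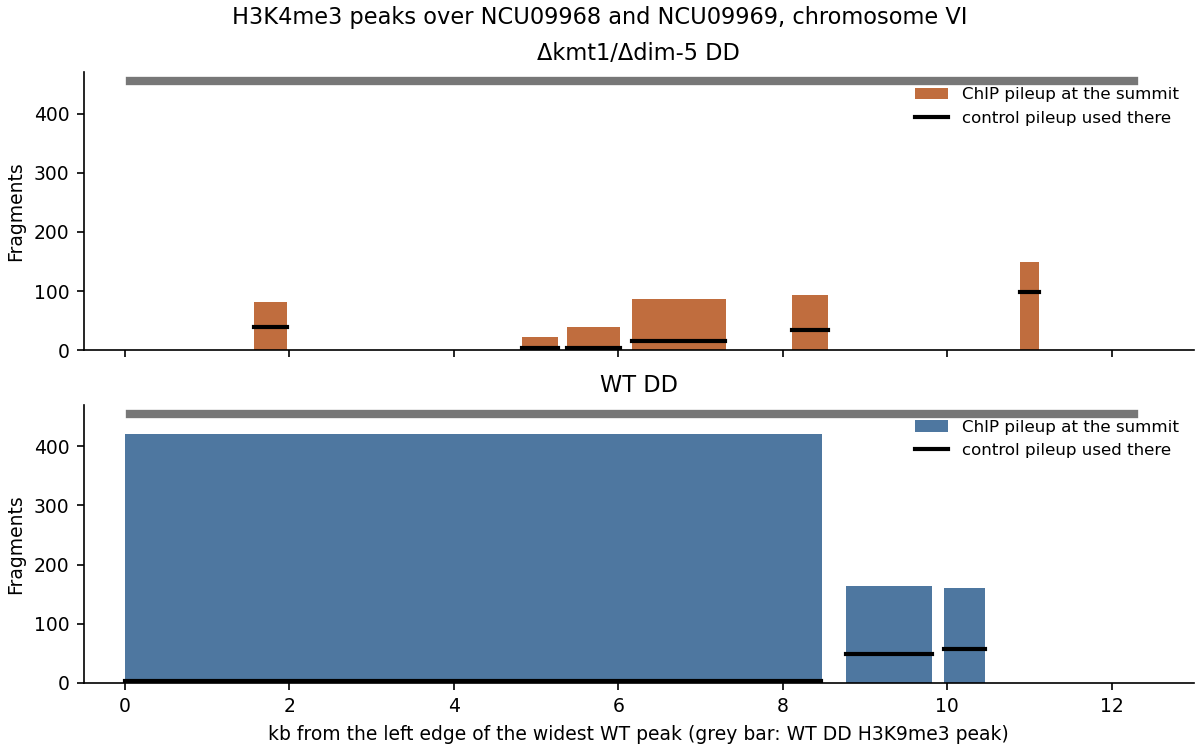
H3K4me3 peaks over NCU09968 and sly-1 (NCU09969), Δkmt1/Δdim-5 DD above WT DD, with the position in kb from the left edge of the widest WT peak. Boxes span each peak and are as high as the ChIP pileup at its summit in fragments, black lines give the control pileup there, and the grey bar is the WT DD H3K9me3 peak. The WT peak reaches 421 fragments over a control of 3.36, and the Δkmt1/Δdim-5 peaks 22 to 150.

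Of the genes of heterochromatin and DNA methylation, 5 of 7 had a peak in both strains. None had a gained or lost peak, where 11.9% of all Δkmt1/Δdim-5 peaks were gained and 4.59% of all WT peaks were lost. The peak over dim-9 (NCU01656), a subunit of the DIM-5 complex, was 2050 bp in Δkmt1/Δdim-5 and 1474 bp in WT. Its ratio of 1.39 was above the 1.25-fold that 8.63% of all pairs passed. It was also wider in Δkmt1/Δdim-5 in LP30 (2223 bp against 1266 bp in WT). The other 4, hpo, dim-7, dim-8 and cul-4, had ratios between 0.99 and 1.23. No list had a peak over the DNA methyltransferase genes dim-2 and rid-1. Of the RNA silencing genes, 3 of 5 had a peak, each wider in Δkmt1/Δdim-5, against 59.4% of all pairs. The RecQ helicase gene qde-3 (NCU08598) passed 1.25-fold, as 8.63% of all pairs did, with 1503 bp in Δkmt1/Δdim-5 and 1115 bp in WT. Of the 4 genes of H3K27 methylation, cac-3 (NCU06679) alone had a peak, of 1031 bp in Δkmt1/Δdim-5 and 1089 bp in WT.

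Of the 12 clock and light response genes, 11 had a peak in Δkmt1/Δdim-5 and 8 in WT. Of the 8 with pairs, 7 were wider in Δkmt1/Δdim-5, with a median ratio of 1.04, where 59.4% of all pairs were wider, with a median ratio of 1.01. None of the genes had a lost peak, against 4.59% of all WT peaks lost. There were 4 gained peaks, all weak, over 3 genes, where 11.9% of all Δkmt1/Δdim-5 peaks were gained. These shares are of peaks and not of genes. The clock gene frequency (frq, NCU02265) had peaks of 784 and 372 bp in Δkmt1/Δdim-5, with folds of 1.19 and 1.09, and none in WT. In LP30 it had 3 peaks in Δkmt1/Δdim-5 and 1 of 325 bp in WT, so the position was called in WT after light. The same held for vivid (vvd, NCU03967), which encodes a blue-light photoreceptor. It had 786 bp in Δkmt1/Δdim-5 DD with a fold of 1.16, and in LP30 825 bp in Δkmt1/Δdim-5 and 586 bp in WT. The cryptochrome gene cry (NCU00582) had 352 bp in Δkmt1/Δdim-5 DD, 462 bp in Δkmt1/Δdim-5 LP30 and no WT peak. Of these gained peaks only the wider of the 2 at frq had a q under 0.01. The peak over al-3 (NCU01427), which encodes the carotenoid precursor enzyme geranylgeranyl diphosphate synthase, was 1068 bp in Δkmt1/Δdim-5 and 245 bp in WT, where its q of 0.083 is above that limit. The white collar gene wc-2 (NCU00902) had nearly equal widths, 2667 bp in Δkmt1/Δdim-5 and 2590 bp in WT, with summits 1015 bp apart.

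Of the loci that the study discusses, the neighbours NCU10058, NCU16377 and NCU10059 on chromosome I lie between H3K9me3 peaks near the longest domain. Over NCU10058 the peak was 1003 bp in Δkmt1/Δdim-5 and 2024 bp in WT, with folds of 1.30 and 2.05. The peak shared with NCU16377 was 617 bp in Δkmt1/Δdim-5 and 433 bp in WT, and that over NCU10059, 549 bp in WT, was lost. At the neighbouring genes NCU02913 and NCU16472 on chromosome I, there was 1 lost peak of 341 bp over NCU02913, with a fold of 1.15, and 1 gained peak of 780 bp over NCU16472, with a fold of 1.36. In LP30 the gained peak was again in Δkmt1/Δdim-5 only, with 610 bp. Over NCU03747 the peaks were alike, 1279 bp in Δkmt1/Δdim-5 and 1273 bp in WT.

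Of the 571 gained peaks, 392 overlapped a peak in Δkmt1/Δdim-5 LP30 (68.7%) and 75 one in WT LP30 (13.1%). Of the 204 lost peaks, 53 overlapped a peak in Δkmt1/Δdim-5 LP30 (26.0%) and 133 one in WT LP30 (65.2%). Of the 46 lost peaks within 1 kb of WT DD H3K9me3, 2 overlapped a Δkmt1/Δdim-5 LP30 peak and 32 a WT LP30 peak. Of the 75 lost peaks beyond 20 kb from H3K9me3, 33 overlapped a Δkmt1/Δdim-5 LP30 peak (44.0%) and 46 a WT LP30 peak (61.3%). The LP30 lists come from other samples and share the control ChIP with the DD lists.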

How the data were processed

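ChIP-seq of H3K4me3 in Δkmt1/Δdim-5 and WT in DD was taken from the lists that the authors deposited. The authors mapped reads to NC12 with BWA and called narrow peaks with macs2 at a cutoff of p under 0.1, each list pooling 2 replicates, with the Δkmt2/Δset-1 DD H3K4me3 ChIP as control. WT DD H3K9me3 broad peaks had the Δkmt1/Δdim-5 H3K9me3 ChIP as control. The deposited fold (a ratio of ChIP to control), −log10 p-value and −log10 q-value are macs2's, at the summit for narrow peaks. The 3 other H3K9me3 lists were not used here. The lists give no read totals, so the depth in them is unknown.

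Peaks matched by 1 bp of overlap. Width, summit distance and distance to H3K9me3 were computed with Python 3.11.15, numpy 2.4.6, pandas 2.3.3 and scipy 1.17.1, after the code was tested on simulated lists. ChIP and control pileups were solved from fold, with a pseudocount of 1, and the Poisson p, and 95.5% of the Δkmt1/Δdim-5 and 96.6% of the WT pileups were whole within 0.02. Genes came from the RefSeq NC12 table, which gives no strand, with 10397 genes on the 7 chromosomes, and all 39 listed genes were found. Named were the deleted and study-named genes, the 8 most enriched lost and gained peaks, and, with q under 0.01 in both lists, the 5 most widened, most narrowed and farthest-shifted pairs, besides genes of the fixed lists whose call or width changed. Other peaks are named as examples, chosen after their values were seen. The members and lists were chosen with earlier results of these data known.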

Additional observations from a re-analysis of the deposited data

How the results depend on the processing

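The lists hold peaks down to a weak cutoff, and the counts depended on it. With a q under 0.01 in the list that holds a peak, 267 gained and 95 lost peaks remained, and with that q in both lists 341 were gained and 188 lost. A fold of at least 1.5 in both lists gave 101 gained and 633 lost peaks, so more were lost than gained under that limit. The fold is scaled within each list, with a median of 1.58 in Δkmt1/Δdim-5 and 1.73 in WT, and the cause was not tested. Matching by 50% of the peak, or within 500 bp, gave 650 and 477 gained and 258 and 163 lost peaks. With peaks inside H3K9me3 left out, an alternative added after seeing the data, 417 were gained and 179 lost. Under a q below 0.01, the gained share was 12.8% on chromosome VI and 56.4% among peaks under 500 bp, and the lost share was 4.62% on VII and 27.7% under 500 bp. The share of gained peaks near H3K9me3 was 27.5% with H3K9me3 peaks of at least 10 kb and 44.1% within 5 kb, and that of lost peaks was 12.3% and 36.3%, or 16.2% with H3K9me3 peaks of q under 0.01. The median summit distance was 73 bp over all overlapping pairs. The median log2 width ratio was 0.02 under each of its 4 alternatives. No paired analysis was possible because each list pools both replicates, and for the same reason no replicate could be left out. Base composition around summits was not run, since no genome was used here.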
